A study of Homo sapiens with 2 samples.

Results

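The transcripts of human chromosome 19 were examined for A-to-G mismatches in HEK-293T cells, a human embryonic kidney cell line, that carried a CIRTS-hADAR biosensor and were sequenced without and with the small molecule ABA. The chromosome was taken whole: every transcript-strand A position listed for chr19 in either library was a member, after removal of positions where G made up 35% or more of the A plus G reads in either library. This left 177064 of 177110 listed positions, among 4725846 listed A positions of chromosomes 1 to 22 and X. The chromosome was selected on its ratio of the A-to-G rate with ABA to that without in these same libraries, so that ratio is given as a description and was not tested. There was 1 library without ABA and 1 with ABA, both from cells with the biosensor, and the labels state 1 biological replicate. No interval below includes the spread between cultures. No library without the biosensor was analysed here. The ABA dose and the length of treatment are not given in the sources used here.

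ADAR enzymes deaminate adenosine in RNA to inosine, which a sequencer reads as G, so that an A position with G reads can mark an edited site. CIRTS are RNA-targeting proteins assembled from human protein parts, and hADAR in the name of the biosensor stands for the human editing enzyme. ADAR deaminase domains are known to favour G on the 3′ side of the edited A, and to favour A or U over G on the 5′ side. Chromosome 19 is known as a gene-dense, GC-rich human chromosome that holds large clusters of zinc finger genes.

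Of the 177064 positions, 115427 were listed in both libraries, 31588 only without ABA and 30049 only with ABA. The plus strand held 96677 and the minus strand 80387. Median depth was 10 reads without ABA and 11 with ABA, and 21848 positions reached 20 reads in each library. The limit of 35% removed 46 positions, 28 of them listed in both libraries. Just inside it, the highest shares were 33.3%, at 3 positions with 2 of 6, 2 of 6 and 3 of 9 G reads. Just outside it, position 3110198 on the plus strand was left out at 37.5%, with 3 of 8 G reads with ABA against 1 of 6 without. Coordinates are those of the hg19 build.

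The files give counts but no letters around a position, and no gene names. To show which transcripts the listing reaches, RefSeq promoter windows of chromosome 19 genes, which run from 250 bases before to 50 bases after a start site, were placed on the listing by the spacing of their A letters, on either strand. Of 2033 chromosome 19 sequences searched, hairpins included, 20 could be placed, through 22 runs of at least 14 consecutive A positions. A further 2 runs fell on the wrong chromosome or strand and were discarded. The genes reached on the matched strand include CALM3, which encodes calmodulin, SNRPA, a protein of the U1 spliceosomal particle, and ZNF146, a zinc finger protein. They also include NUCB1, a calcium-binding Golgi protein, DHPS, which makes the deoxyhypusine precursor of hypusine in eIF5A, and TFPT, a chromatin remodelling subunit. The choice of these genes was made with their values in view. The deepest window placed was that of LOC124904704, a lncRNA model, and letters around G reads could also be read in ECSIT and GEMIN7. The CALM3, NUCB1, ZNF146 and GEMIN7 runs came from windows of genes on the opposite strand, and the ECSIT run from the window of ZNF653. These runs need not lie near the start site of the gene named. The following sequences show what the listed A positions look like in 4 of the genes. They were picked for having a G read only in the ABA library, so their counts are no evidence of a difference. Each is 21 bases of RefSeq GRCh38.p14, 5′ to 3′ on the transcript strand, with the A in capitals, and the coordinates are those of the matched hg19 positions.
CALM3, plus strand, chr19:47112389-47112409: acagatgatgActgcaaagtg
CALM3, plus strand, chr19:47112473-47112493: tctcttcaacActcccctgcg
CALM3, plus strand, chr19:47112585-47112605: ttcttccctgAgtctctctcc
CALM3, plus strand, chr19:47112605-47112625: catgcccctcAtctcttcctt
NUCB1, plus strand, chr19:49422308-49422328: aagaatgaggAggacgacatg
DHPS, minus strand, chr19:12792406-12792426: ccggcttccaAgcaaccaact
TFPT, minus strand, chr19:54618650-54618670: gggcttccggAggtcgcggag
TFPT, minus strand, chr19:54618635-54618655: gcggagatggAattggagcag

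By that choice, each of these 8 positions had 1 G read with ABA and 0 without. In the same run in CALM3, positions 47112510 and 47112571 went the other way, with 1 of 28 and 1 of 41 G reads without ABA and 0 of 48 at both with ABA. The LOC124904704 window had 4 of 2799 reads as G without ABA and 5 of 3226 with ABA, and the block that holds it had a ratio of 1.08 (0.311 to 3.90). Depth at the 4 CALM3 positions was 31 and 41 reads without and with ABA at the first, 49 and 71 at the second, 58 and 59 at the third and 53 and 52 at the fourth. The NUCB1 position had 22 and 20 reads, the DHPS position 11 and 10, and the TFPT positions 13 and 13, and 10 and 13, in the order printed. Matched positions were pooled without the first and last A of each run, so that both neighbours could be read, which left 530. Over these 530, 6 of 9993 reads without ABA and 15 of 10650 reads with ABA were G. The ratio was 2.35 with a 95% interval of 0.860 to 7.38. The interval holds 1, so the matched windows alone were too shallow to show a difference. With ABA, 6 of the 15 G reads stood at an A with G on its 5′ side, 4 after C, 3 after A and 2 after T, and without ABA 4 of the 6 stood after A. On the 3′ side, 7 of the 15 stood before G, 3 before C, 3 before T and 2 before A. Without ABA these numbers were 3, 0, 1 and 2. These counts are too small to rank the neighbours.

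Over the whole chromosome, A-to-G reads were more frequent with ABA. Without ABA, 1013 of 2150582 reads at the listed positions were G, a rate of 0.0471% (95% interval 0.0442 to 0.0501). With ABA, 2701 of 2216760 reads were G, a rate of 0.122% (0.117 to 0.127). The ratio of ABA to no ABA was 2.59 (2.41 to 2.78). Intervals of rates are Clopper-Pearson and those of ratios are exact conditional binomial intervals, all at 95%, and both cover counting error only. Neighbouring positions share reads, which makes these intervals too narrow. On all other nuclear chromosomes together, the rate was 0.0383% without and 0.0754% with ABA, a ratio of 1.97 (1.93 to 2.01). The chr19 ratio was 1.31 times that of the other chromosomes (1.22 to 1.42, by a normal approximation on the log scale).

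The 2 strands did not differ beyond counting error. On the plus strand, 586 of 1227134 reads were G without ABA and 1533 of 1261746 with ABA, a ratio of 2.54 (2.31 to 2.80). On the minus strand, 427 of 923448 reads were G without ABA and 1168 of 955014 with ABA, a ratio of 2.64 (2.37 to 2.96). The minus strand ratio was 1.04 times that of the plus strand, and the interval of 0.898 to 1.203 leaves room for a difference in either direction. The minus strand was read as T-to-C on the genome, so the same difference appeared in both complements.

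Other changes at the same A positions were counted as well. How far errors of the A-to-G type differed between the libraries was not tested. A-to-C reads on chr19 numbered 250 without ABA and 313 with ABA, a ratio of 1.22 (1.03 to 1.44), beside 1.16 (1.11 to 1.21) on the other chromosomes. A-to-T reads numbered 115 and 103, a ratio of 0.870 (0.660 to 1.14), beside 1.02 (0.971 to 1.08). The chr19 ratio over that of the other chromosomes was 1.05 (0.883 to 1.24) for A-to-C and 0.848 (0.647 to 1.11) for A-to-T, and both intervals hold 1.

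**Figure D1:**
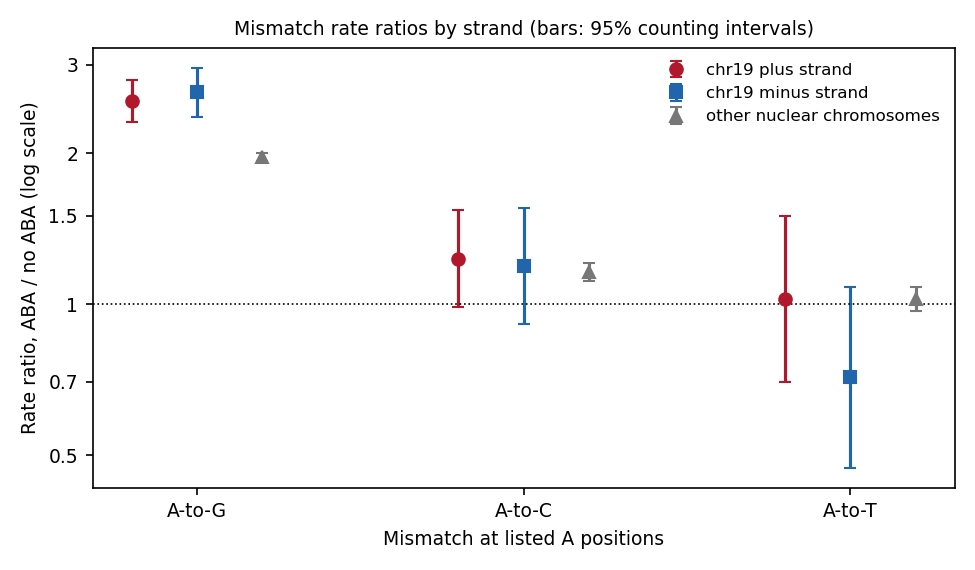
Ratio of the mismatch rate with ABA to that without ABA (vertical axis, log scale) for A-to-G, A-to-C and A-to-T at listed A positions, with points for the chr19 plus strand, the chr19 minus strand and the other nuclear chromosomes and bars for 95% counting intervals, 1 library per condition. The A-to-G points of both chr19 strands, 2.54 and 2.64, lie above the 1.97 of the other chromosomes, while the A-to-C and A-to-T intervals of chr19 overlap those of the other chromosomes.

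Chromosome 19 also took a larger share of the reads with ABA. It held 4.24% of nuclear A plus G reads without ABA and 4.94% with ABA, so that its relative depth, the share with ABA over that without, was 1.16, the highest of 23 chromosomes. It held 5.17% of nuclear G reads without ABA and 7.75% with ABA. With 1 bulk library per condition, more transcript per cell, more cells with the transcript and a difference in library preparation cannot be told apart. The part of this depth difference in the A-to-G ratio was not tested beyond the values given for relative depth below.

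The difference was spread along the chromosome. Of 57 bins of 1 Mb that held a listed position, 43 had at least 10000 A plus G reads in each library. All 43 of these had a ratio above 1, where 89.5% of the 1228 such bins on all 23 chromosomes did. A ratio of 2 or more was reached in 35 of the 43, against 44.3% of all 1228 bins. These shares come from the contrast that singled out the chromosome, so nothing is read from them beyond how evenly the difference was spread. The median bin ratio was 2.74 on chr19 and 1.84 over the 1185 bins of the other chromosomes. The lower bound was above 1 in 35 of the 43 bins, a count given for chr19 alone and not read as particular to it. In 41 of the 43 the interval held the chromosome's 2.59, in 2 the upper bound lay below it, and in none did the lower bound lie above it. The interval also held the other chromosomes' 1.97 in 35 of the 43, so most single bins do not tell these values apart.

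The 8 deepest bins had ratios from 2.02 to 3.20. The deepest, at 10 to 11 Mb, had 44 of 111412 reads as G without ABA and 96 of 120193 with ABA, a ratio of 2.02. The bin at 3 to 4 Mb had 119 of 111873 and 319 of 118946, the most G reads of any bin and a ratio of 2.52. At 1 to 2 Mb the counts were 25 of 86785 and 89 of 96672, a ratio of 3.20. At 39 to 40 Mb they were 40 of 87596 and 117 of 93609, a ratio of 2.74. These 4 bins lay on both sides of the chromosome's value. At 50 to 51 Mb, 48 of 83942 reads and 111 of 87528 were G, a ratio of 2.22, and at 49 to 50 Mb, 80 of 81174 and 196 of 89792, a ratio of 2.21. The bins at 47 to 48 Mb and 2 to 3 Mb had ratios of 3.05 and 2.46. All 8 had a relative depth above 1, between 1.14 and 1.26.

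The extremes were shallower. The lowest ratio among the 43 bins was 1.13 (0.552 to 2.30), at 33 to 34 Mb, where 19 of 32796 reads were G without ABA and 17 of 25949 with ABA and relative depth was 0.894. The highest was 8.89 (1.14 to 401), at 44 to 45 Mb, which rested on 7 G reads of 11380 with ABA against 1 of 14447. That single read without ABA sets the size of this ratio only within these limits. The 14 bins under the read minimum held 28 G reads without ABA and 43 with ABA in all, a ratio of 2.43 (1.47 to 4.06). Leaving out each bin in turn moved the chromosome's ratio only between 2.55 and 2.63. The bin at 5 to 6 Mb, named after its value was seen, was the other bin whose upper bound lay below 2.59. It had 51 of 62746 reads as G without ABA and 93 of 64616 with ABA, a ratio of 1.77 (1.25 to 2.54). No bin held more than 11.6% of the G reads with ABA beyond those that the rate without ABA would give, and that bin was the one at 3 to 4 Mb.

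**Figure D2:**
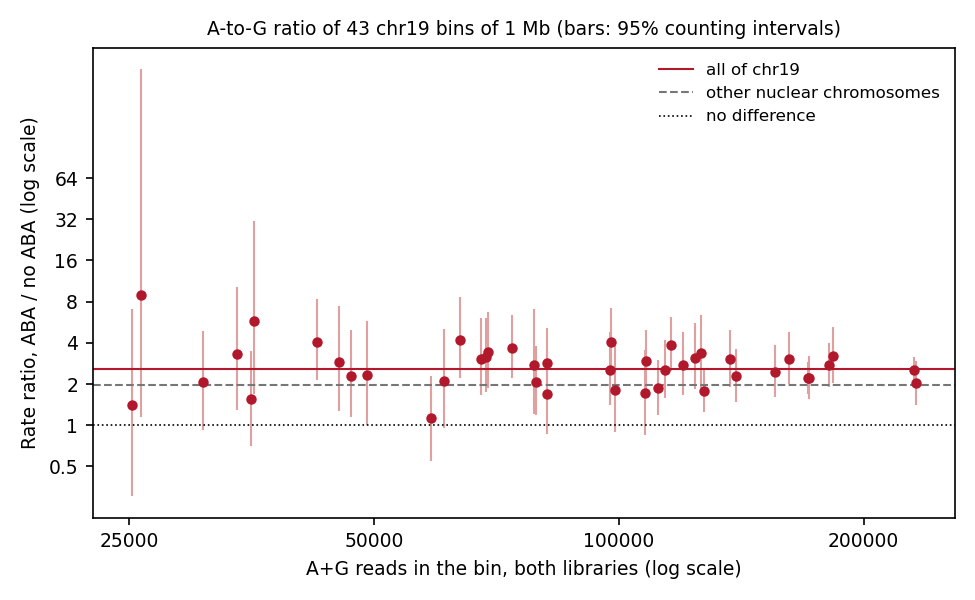
Ratio of the A-to-G rate with ABA to that without (vertical axis, log scale) in the 43 chr19 bins of 1 Mb with at least 10000 A plus G reads in each library, against the bin's reads over both libraries (horizontal axis, log scale), with 95% counting intervals. All points lie above 1, from 1.13 to 8.89, and the spread narrows with depth toward the chromosome's 2.59, above the line of the other chromosomes at 1.97.

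The rate was higher at deeper positions in both libraries, and the ratio was not. Among positions listed in both libraries, those with a mean depth under 10 reads had rates of 0.0253% without and 0.0756% with ABA, a ratio of 2.99 (2.28 to 3.95). Those with 100 reads or more had rates of 0.168% and 0.396%, a ratio of 2.35 (1.99 to 2.78). The classes between gave 2.62, 2.53 and 2.52 in order of depth. The lowest class over the highest gave 1.27 (0.930 to 1.74), which does not separate them. The other chromosomes gave 2.09, 1.90, 1.81, 1.78 and 1.81 over the same 5 classes. In each class the chr19 value was the higher one, by 1.30 to 1.43 times, which describes the selected contrast and is no separate evidence for it.

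Taken over all depths, the ratio was lower where more A positions were listed within 50 nt. Density was counted as the number of other same-strand positions listed in both libraries within 50 nt on either side. Positions with 0 to 9 such neighbours had 72 of 206445 reads as G without ABA and 256 of 213266 with ABA, a ratio of 3.44 (2.64 to 4.54). With 10 to 19 neighbours the ratio was 2.75 (2.45 to 3.09), and with 20 to 29 it was 2.29 (2.04 to 2.59). With 30 or more, 69 of 151102 and 130 of 146923 reads were G, a ratio of 1.94 (1.44 to 2.63). The ratio of the sparsest class was 1.78 times that of the densest (1.2004 to 2.63). On the other chromosomes the 4 classes gave 2.43, 2.14, 1.82 and 1.51, the same order at lower values. In the densest class chr19 was 1.29 times as high (0.958 to 1.73), an interval that holds 1. Split by depth too, chr19 positions under 10 reads gave 3.42, 3.05, 2.07 and 0.539 from sparsest to densest. Those of 10 to under 20 reads gave 4.05, 2.82, 2.05 and 1.67. Those of 20 to under 50 reads gave 2.61, 2.62, 2.41 and 2.63, without that order. The values were 3.05, 2.90, 2.53 and 0.945 at 50 to under 100 reads. At 100 reads or more they were 1.86, 2.60, 2.18 and 2.12, where the sparsest class had only 3 and 6 G reads. With density counted over 250 nt on either side and class limits 5 times as high, the chr19 classes gave 2.83, 2.37, 1.52 and 5.39 (1.503 to 29.2), so the order turned at the densest class.

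Chr19 positions lay more often in the sparse classes. Those with 0 to 9 neighbours made up 18.2% of its positions listed in both libraries, against 13.4% on the other chromosomes, and those with 30 or more made up 6.28% against 14.6%. Density and depth are not independent of each other, so the G reads on chr19 were set against those expected from the rates of the other chromosomes in the same depth and density class. Without ABA, 939 G reads were observed and 1003 expected, or 0.936 of the expected number (0.877 to 0.998). With ABA, 2496 were observed and 2049 expected, or 1.22 times the expected number (1.17 to 1.27). The class rates of the other chromosomes gave an expected ratio of 1.96 for chr19, and the observed ratio over positions listed in both libraries was 2.55. These values describe the contrast on which the chromosome was selected, and the part of depth and density in its ratio was not tested. The value below 1 in the library without ABA turned with the setting: with density class alone it was 1.24 (1.17 to 1.33).

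A listed A beside the position went with the size of the ratio, and the side mattered. This split was added after the data were seen. It shows only neighbours that were themselves listed in both libraries. Where the 5′ neighbour alone was a listed A, 215 of 342828 reads were G without ABA and 702 of 353755 with ABA, a ratio of 3.16 (2.71 to 3.70). Where the 3′ neighbour alone was a listed A, 124 of 347638 and 174 of 358775 were G, a ratio of 1.36 (1.07 to 1.73). The intervals of these classes do not overlap. With no listed A on either side the ratio was 2.63 (2.38 to 2.90), and with an A on both sides 1.80 (1.18 to 2.77).

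The other chromosomes had the same order, with 2.33 for a 5′ A alone, 1.98 for no A, 1.42 for A on both sides and 1.32 for a 3′ A alone. The chr19 ratio was 1.36 times theirs at a 5′ A (1.16 to 1.59) and 1.32 times theirs with no A on either side (1.198 to 1.46). At a 3′ A it was 1.03 times theirs (0.817 to 1.31) and with A on both sides 1.27 times (0.844 to 1.91), and both intervals hold 1. The 3′ A class made up 17.2% of chr19 positions listed in both libraries and 19.9% elsewhere.

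**Figure D3:**
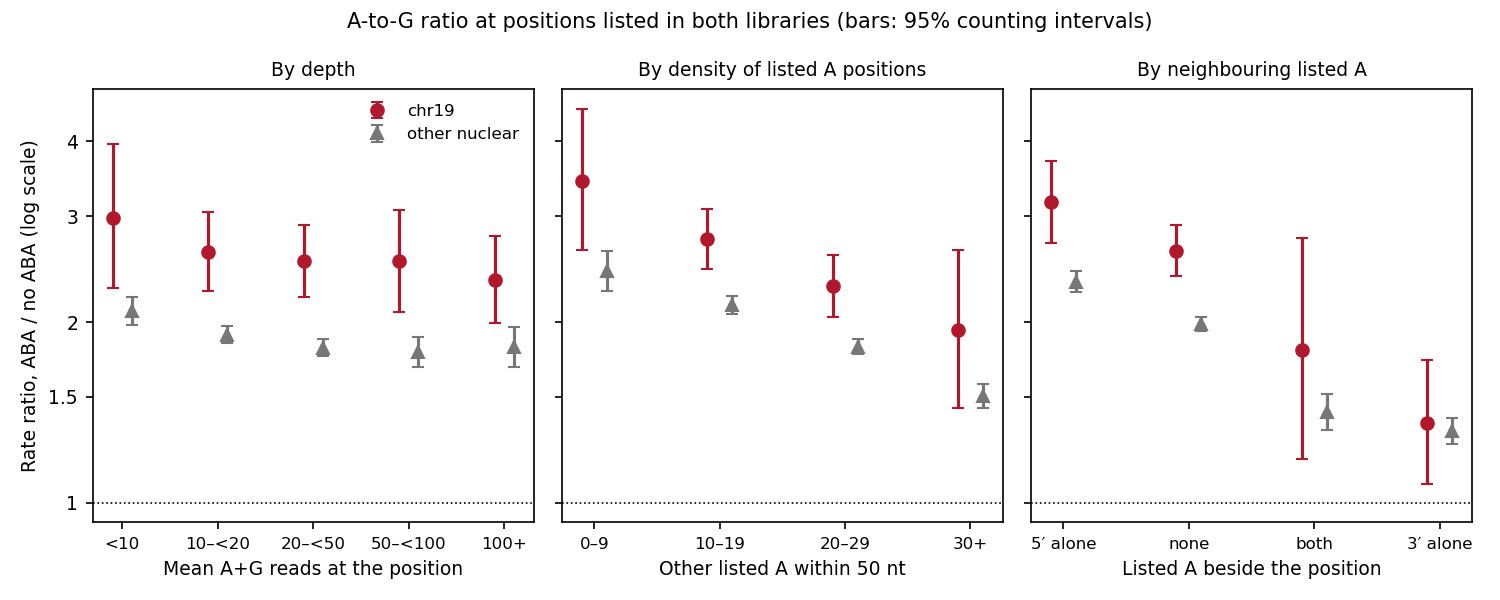
Ratio of the A-to-G rate with ABA to that without (vertical axis, log scale) at positions listed in both libraries, for chr19 (circles) and the other nuclear chromosomes (triangles), by mean depth in reads, by the number of other listed A positions within 50 nt, and by which neighbouring base is a listed A, with 95% counting intervals. On chr19 the ratio goes from 3.44 to 1.94 from the sparsest to the densest class and from 3.16 at a 5′ A to 1.36 at a 3′ A. The intervals of both sets overlap at a 3′ A, at A on both sides and in the densest class.

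Single loci did not carry the ratio. Same-strand positions at most 100 nt apart were joined into 6789 blocks on chr19. Without the block with the most G reads the ratio was 2.598, without the 5 leading blocks 2.59, without the leading 10 it was 2.63, and without the leading 50 also 2.63 (2.41 to 2.88). Without the leading 100 blocks, a number added after the data were seen, it was 2.68 (2.43 to 2.96). The 10 leading blocks held 15.1% of the chr19 G reads without ABA and 13.7% with ABA, and the leading 100 held 45.1% and 43.2%. Taken by themselves, the leading 10 had a ratio of 2.29 (1.89 to 2.78).

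Among the 2044 chr19 blocks with at least 200 reads in each library, the rate with ABA exceeded that without in 760 and was below it in 273, and 1011 had no G read in either library. The share that was higher was 37.2%, where 27.9% of 45236 blocks on all chromosomes were higher. The share that was lower was 13.4%, near the 13.5% over all blocks. Of all chr19 blocks, 557 held G reads in the library without ABA and 1129 in the ABA library. These numbers, and the 1011 blocks with no G read, are given for chr19 alone. They were not set against other chromosomes and are not read as particular to chr19.

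The blocks with the most G reads fell into a few places. On the minus strand, 5 of the 10 lay between 3976062 and 3984345. The first of these, chr19:3976062-3976740, was also the deepest block of the chromosome. It had 28 of 15797 reads as G without ABA and 63 of 15791 with ABA, a ratio of 2.25 (1.42 to 3.65), spread over 24 positions in the library without ABA and 41 in the ABA library. The next, chr19:3977818-3978170, had 13 of 9367 and 47 of 10308, a ratio of 3.29 (1.75 to 6.62). The block chr19:3982807-3983285 had 10 of 8522 and 33 of 9373, a ratio of 3.0004 (1.44 to 6.83). In all 3 the lower bound was above 1, and relative depths were 1.13, 1.24 and 1.24. The block chr19:3984135-3984345 had 11 and 25 G reads, a ratio of 2.37 (1.12 to 5.33). Without its position with the most G reads the ratio was 1.70 (0.654 to 4.74), an interval that holds 1. In chr19:3981338-3981443, 13 and 22 G reads gave a ratio of 1.76 (0.846 to 3.79), whose interval holds 1.

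On the plus strand, chr19:41263237-41263407 had the highest rate with ABA of the 10 leading blocks, 1.79%, against 0.536% without ABA. It had 10 of 1867 reads as G without ABA and 55 of 3065 with ABA, a ratio of 3.35 (1.69 to 7.37), and its relative depth was 1.85. Its leading position, 41263353, had 5 of 56 and 15 of 80 G reads, and without it the block's ratio was 4.85 (1.92 to 15.8). The block began 6093 nt downstream of the run placed in SNRPA, a gene of 14187 nt in RefSeq GRCh38.p14, on the same strand. Whether it belongs to that gene was not determined here. The block that holds the SNRPA run itself, chr19:41256919-41257384, had 2 of 2439 reads as G without ABA and 19 of 2478 with ABA, a ratio of 9.35 (2.26 to 82.8), over 2 and 6 positions with a G read.

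The other leading plus-strand blocks had smaller ratios. In chr19:5691336-5691872, the second by G reads, 30 of 10006 and 47 of 10380 reads were G, a ratio of 1.51 (0.935 to 2.47), and its rate of 0.300% without ABA was above the chromosome's 0.0471%. The blocks chr19:50001182-50001302 and chr19:49994986-49995559 had 14 and 27, and 16 and 24 G reads, ratios of 2.09 (1.06 to 4.31) and 1.36 (0.692 to 2.74). In chr19:49469847-49470123, 8 of 2483 and 26 of 3277 reads were G, a ratio of 2.46 (1.08 to 6.29). Of the 8 G reads without ABA in that block, 7 were at the single position 49469892. Without that position the block's ratio was 7.57 (1.08 to 329). The blocks before it, in the order given, were also taken without their positions with the most G reads. They then gave 1.37 (0.732 to 2.60), 1.88 (0.849 to 4.37) and 1.24 (0.624 to 2.53), and these intervals hold 1.

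**Figure D4:**
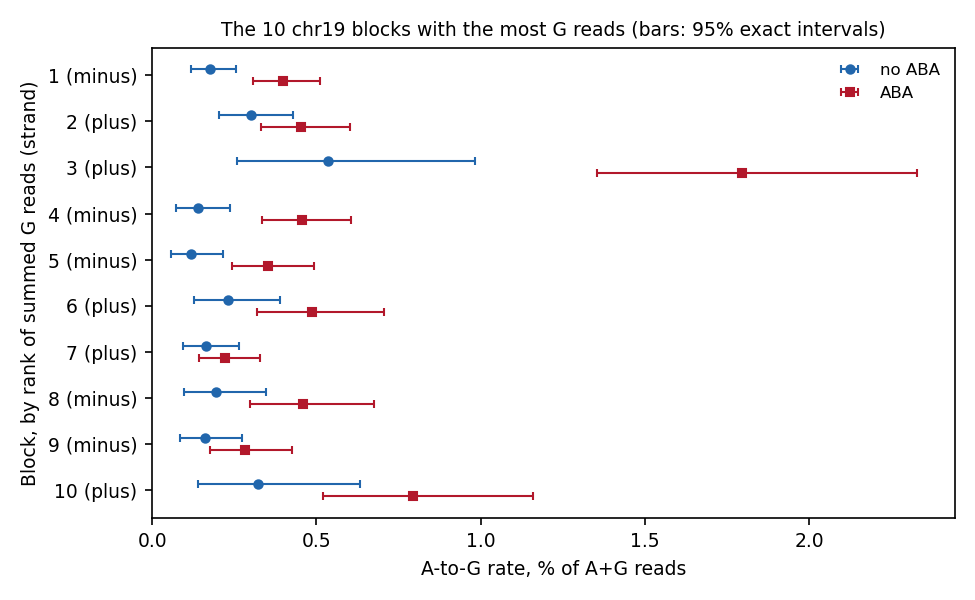
A-to-G rate in percent of A plus G reads (horizontal axis) without ABA (circles) and with ABA (squares) in the 10 chr19 blocks with the most G reads over both libraries, ordered by that number from the top, with exact 95% intervals. The rate is higher with ABA in all 10, and the third block, on the plus strand, stands apart at 1.79% against 0.536%.

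Several of the deepest blocks held few G reads. The second deepest block, chr19:36726561-36729651 on the plus strand, holds the runs placed in ZNF146. It had 4 of 16714 reads as G without ABA and 11 of 13386 with ABA, a ratio of 3.43 (1.02 to 14.8). The third deepest, chr19:33870052-33873578 on the plus strand, had 12 of 18027 and 6 of 9790, a ratio of 0.921 (0.284 to 2.65), and its relative depth was 0.614. On the minus strand, chr19:6413171-6415887 had 4 and 10 G reads, a ratio of 2.69 (0.777 to 11.8). The sixth deepest, chr19:47112382-47114027, holds the CALM3 sequences printed above. It had 8 of 9130 and 22 of 11409, a ratio of 2.20 (0.944 to 5.72), and relative depth there was 1.41.

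Of 20 blocks that hold a placed RefSeq run, 15 had at least 200 reads in each library. Of these 15, 11 were higher with ABA, where 27.9% of all such blocks were, and 4 had no G read in either library. In 2 of the 11, those of PPAN and beside U2AF2, there was 1 G read in each library and the order rests on read totals alone. The 20 blocks were reached through their sequence and are too few to set against that share. Pooled, all 20 had 22 of 46112 reads as G without ABA and 70 of 44678 with ABA, a ratio of 3.28 (2.01 to 5.57). The blocks of CALM3, SNRPA and ZNF146 gave 52 of the 70 G reads with ABA. Blocks without a G read in either library included those of FARSA, a subunit of phenylalanyl-tRNA synthetase, UBE2M, a NEDD8-conjugating enzyme, and PEPD, a dipeptidase. The FARSA block had 1345 and 1384 reads, and the Clopper-Pearson upper bound for 0 of 1384 with ABA is 0.266%, above the chromosome's 0.122%.

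Blocks whose read share was larger with ABA had a higher ratio. This split was added after the data were seen, and it covers blocks with at least 200 reads in each library. The 309 chr19 blocks with a relative depth of 1.5 or more had 58 of 144927 reads as G without ABA and 309 of 223020 with ABA, a ratio of 3.46 (2.61 to 4.67). Blocks of 1.2 to under 1.5 gave 2.61 (2.30 to 2.96) and blocks of 1 to under 1.2 gave 2.47 (2.19 to 2.79). The 289 blocks of 0.8 to under 1 gave 1.57 (1.21 to 2.05) and the 109 blocks under 0.8 gave 1.64 (1.06 to 2.53). On the other chromosomes the same 5 classes, from the highest down, gave 2.66, 2.11, 1.75, 1.62 and 1.46.

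Set against the other chromosomes class by class, chr19 was 1.41 times as high at 1 to under 1.2 (1.25 to 1.60) and 1.24 times at 1.2 to under 1.5 (1.09 to 1.41). At 0.8 to under 1 it was 0.971 times (0.749 to 1.26), and under 0.8 it was 1.12 times (0.737 to 1.70), so that no difference was detectable in blocks whose share was smaller with ABA. Their chr19 G reads without and with ABA were few, 105 and 134 at 0.8 to under 1 and 47 and 43 under 0.8. The interval at 0.8 to under 1 meets that at 1 to under 1.2 only at its edge, with bounds of 1.258 and 1.248. It overlaps more with that at 1.2 to under 1.5, and the interval under 0.8 overlaps both. Whether the chr19 difference is limited to blocks with a larger share was not tested. At 1.5 or more the value was 1.30 (0.971 to 1.75). Blocks with a relative depth under 1 made up 19.5% of these chr19 blocks and 36.9% of those elsewhere.

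Most single positions carried 1 G read or none. Of the 115427 chr19 positions listed in both libraries, 864 (0.749%) carried G in the library without ABA and 1999 (1.73%) did in the ABA library. On the other chromosomes these shares were 0.545% and 0.946%. A G read was seen only with ABA at 1849 positions, only without ABA at 714 and in both libraries at 150. Positions with a single G read held 87.0% of the G reads without ABA and 70.0% with ABA. There were 3 positions with 5 G reads or more in the library without ABA, and 31 in the ABA library. The overlap between libraries and the counts of G reads per position are given for chr19 alone. They are not read as particular to it.

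Few positions reached a high edited share. A position was counted as an edited site from 20 reads, 3 G reads and a share of 10% upward. By this rule, 3 of 27510 covered chr19 positions were edited sites without ABA, or 0.0109%, where the share over all chromosomes was 0.00886%. With ABA, 12 of 29327 were, or 0.0409%, where it was 0.0313%. Of the 21848 chr19 positions covered by 20 reads or more in each library, 4 were higher by 10 percentage points or more with ABA, beside 0.0203% of 359021 positions on all chromosomes, which is a share near the 0.0183% of chr19. None was lower by that much, beside 0.000836% over all chromosomes. Without these 4 sites the chr19 ratio was 2.57 (2.39 to 2.77). By any amount, 1025 positions (4.69%) were higher with ABA and 451 (2.06%) were lower, beside 3.29% and 1.87% of positions on all chromosomes.

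The 8 largest differences in share were all from few reads. Position 49468743 on the plus strand had 1 of 27 G reads without ABA (3.70%, exact interval 0.0937 to 18.97) and 8 of 50 with ABA (16%, 7.17 to 29.1). At 55915708 on the minus strand the counts were 0 of 24 and 3 of 26, at 17387384 on the plus strand 0 of 28 and 3 of 29, and at 36128149 on the plus strand 0 of 26 and 3 of 29. Intervals of these 4 sites overlap between the libraries. Position 49469892 on the plus strand had the highest share with ABA of these 8, with 7 of 53 reads (13.2%, 5.48 to 25.3) and 16 of 69 (23.2%, 13.9 to 34.9). Position 41263353 had 8.93% (2.96 to 19.6) and 18.8% (10.9 to 29.03), and 40328475 on the minus strand had 0 of 39 and 5 of 52.

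The last of the 8, 47113869 on the plus strand, lies in the block that holds the CALM3 runs, with 1 of 35 G reads without ABA (2.86%, 0.0723 to 14.9) and 7 of 58 with ABA (12.1%, 4.99 to 23.3). The most G reads at any chr19 position were at 5691580 on the plus strand, where the library without ABA had 11 of 170 (6.47%, 3.27 to 11.3) and the ABA library 20 of 153 (13.1%, 8.17 to 19.5). These intervals overlap too. The 5 largest differences in the other direction were 2 of 26 reads against 0 of 26 at 3578718, 2 of 26 against 0 of 20 at 49459589 and 2 of 36 against 0 of 30 at 34706064, all on the plus strand, and 1 of 20 against 0 of 29 at 2434339 on the minus strand and 0 of 30 at 13051461 on the plus strand. Each rests on 1 or 2 reads.

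Among 23 chromosomes, chr19 had the second highest ratio, after chromosome 21 with 2.65 (2.31 to 3.05), and their intervals overlap. In RefSeq GRCh38.p14 it has 1451 protein-coding genes, 24.8 per Mb, the most of any chromosome, and its listed A positions were the sparsest, with a mean of 16.6 others within 50 nt. The chromosomes nearest to it in that density were 22, with a mean of 18.1 and a ratio of 2.32 (2.09 to 2.57), 16, with 18.4 and 2.32 (2.13 to 2.53), and 9, with 18.4 and 1.95 (1.78 to 2.14). Chromosome 17, second in gene density with 14.04 genes per Mb, had 2.03 (1.90 to 2.18). The gene-poor chromosomes 13 and 18 had 1.59 (1.35 to 1.88) and 1.47 (1.24 to 1.73).

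Across the 23 chromosomes, Spearman's rho of the ratio was 0.739 with protein-coding genes per Mb, -0.681 with mean density of listed A positions and 0.808 with relative depth. Pearson's r was 0.624, -0.694 and 0.841. Without chr19 the rho values were 0.721, -0.645 and 0.785, and r was 0.476, -0.579 and 0.792. The chromosomes share both libraries, their depth and base composition, and these 3 measures move together, so the correlations are given as a description with no p. Among the 43 bins of chr19, rho was -0.515 with density and 0.0969 with relative depth.

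**Figure D5:**
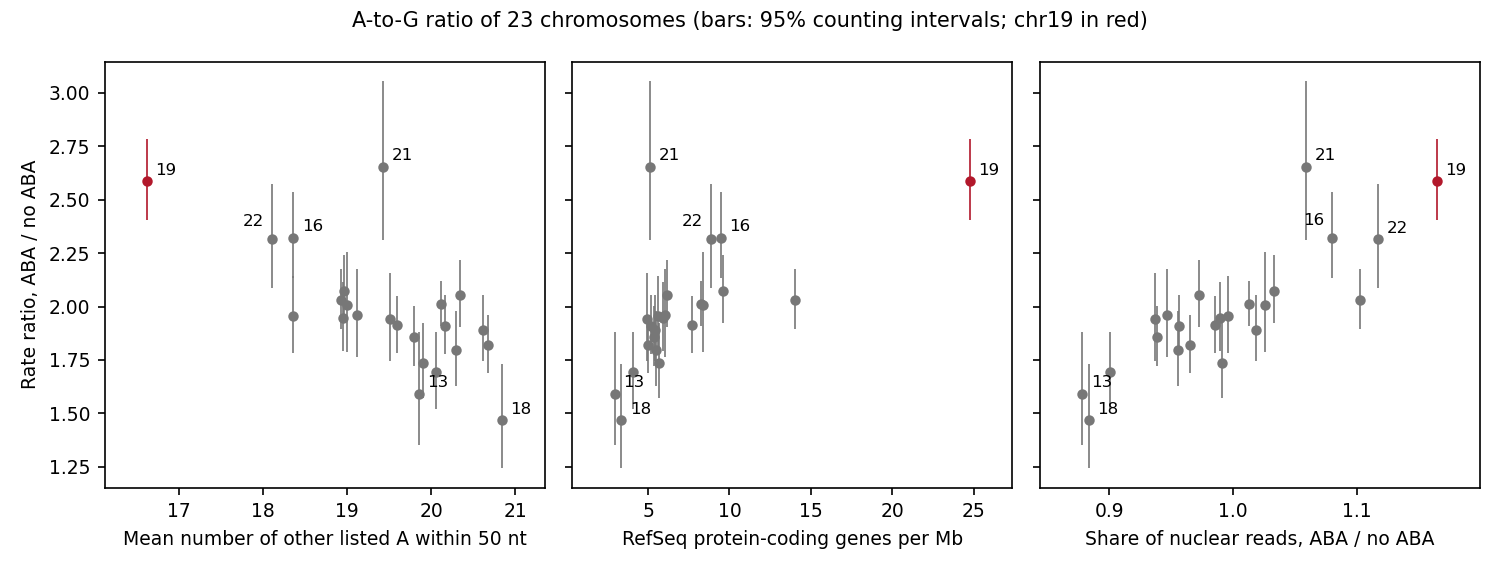
Ratio of the A-to-G rate with ABA to that without (vertical axis) for 23 chromosomes against the mean number of other listed A positions within 50 nt, RefSeq protein-coding genes per Mb and relative depth (share of nuclear reads with ABA over that without), with 95% counting intervals and chr19 in red. Chr19 lies at the edge of all 3 horizontal axes, at 16.6, 24.8 and 1.16, and only chromosome 21 has a higher ratio.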

How the data were processed

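For each library the authors deposited raw counts of each of the bases at every position they listed. Plus-strand files list A-to-G and minus-strand files T-to-C, with a single base read cutoff of 5, per the file headers. The lowest depth found was 6 reads. The submitters' processing notes name cutadapt, HISAT2 and the hg19 build, with no versions. The KAPA mRNA HyperPrep kit was used, per the labels. The base counter and any removal of duplicate reads are not given in the sources used here.

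Minus-strand counts were complemented and both libraries joined by position. The rate is G over A plus G, with reads summed over positions. Total A plus G reads were 50726558 without and 44894267 with ABA. Chromosomes 1 to 22 and X were used. With 1 library per condition no significance test was run, and intervals at 95% cover counting error only. Chr19 and its classes were chosen with earlier results of these data known. Named loci are the 8 deepest bins and blocks, the 8 blocks with most G reads, the extreme bins, and the 8 largest rises and 5 largest falls in share. The 2 next blocks by G reads and the genes placed by sequence were added after their values were seen.

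RefSeq windows were placed where at least 14 consecutive listed positions, spanning 45 nt or more, had the spacing of the sequence's A letters. No coordinate was converted between builds. The code for the ratio and its interval was checked on simulated counts. Python 3.11.15, numpy, pandas, scipy and matplotlib were used. Alternatives to the share limit, coverage, bins, classes, blocks and site rules were run.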

Additional observations from a re-analysis of the deposited data

How the results depend on the processing

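The chr19 A-to-G ratio stayed above 1 under all 11 alternatives, from 2.15 to 2.67. It left the interval of the reported value with no share limit (2.15, plus strand 2.05, minus strand 2.31) and with at most 1 G read counted per position and library (2.28, and 1.22 relative to the other chromosomes). With density counted over 250 nt, the classes after the sparsest gave 2.37, 1.52 and 5.39, the last with an interval of 1.503 to 29.2, so the order held up to the third class and turned at the densest. With depth class alone, G reads with ABA were 1.33 times those expected, and with density class alone 1.60 times. Without ABA, density class alone turned the value from 0.936 to 1.24; depth also differs between density classes, and the cause was not tested. Edited sites without and with ABA numbered 5 and 38 at a share of 5%, 0 and 1 at 20%, and 1 and 5 with at least 50 reads. Sites 10 points higher and lower numbered 51 and 12 with at least 10 reads, and 76 and 9 at 5 points; with at least 50 reads no site was higher. The other 34 of 56 alternatives stayed within the interval, or within 1.5 times the count, of the reported value. No paired analysis was possible because each condition had 1 library. No replicate could be left out for the same reason. Depth limits single positions most: at 10 reads, 1 G read is a share of 10%.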
